A study of Saccharomyces cerevisiae with 18 samples.

Results

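The transcripts described here encode the proteins of the small subunit of the cytosolic ribosome of Saccharomyces cerevisiae. The set was defined by systematic gene name and held 57 genes, RPS0A to RPS31 and ASC1. Of these, 55 had an intensity on all 18 arrays, out of 5739 genes with intensities in all. RPS4A and RPS6A were listed without a value, so that Rps4 and Rps6 were represented by their second copies, RPS4B and RPS6B. The 55 genes comprised 22 paralog pairs with both copies measured, these 2 second copies, and 9 single-copy genes.

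RNA came from the engineered strains EPY330 and EPY338, both grown for 24 h in YPG, the inducing medium of the study. The sample titles mark the strains as A and B, read here as EPY330 and EPY338. The alleles that separate the strains are not given in the sources used here. Equal amounts of RNA from 3 cultures were pooled for each strain, and 10 μg of the pooled total RNA entered each labeling reaction. Every pool was labeled in triplicate by each of 3 methods and hybridized to NimbleGen expression arrays, which gave 3 arrays for each combination of strain and method.

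With the direct random method, total RNA was reverse-transcribed from random nonamers that carry Cy3 at their 5′ end, and 5 μg of cDNA was hybridized. With the indirect method, aminoallyl nucleotides were built into oligo(dT)-primed cDNA and coupled afterwards to an Alexa Fluor dye, and 300 ng was hybridized. With the ds-cDNA method, oligo(dT)-primed double-stranded cDNA served as the template for a polymerase that extended labeled random primers, and 4 μg was hybridized. As the methods shared the 2 RNA pools, the spread between replicates comes from the labeling, the hybridization and the scan and leaves out the cultures, and p-values measure only that spread.

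The small subunit decodes the mRNA: its head and body close around the message, and most of its proteins are needed for viability. In budding yeast most ribosomal proteins are encoded by a pair of genes that arose from a whole-genome duplication, many with an intron. The transcripts are short and abundant, and they are transcribed together under Rap1, Fhl1, Ifh1 and Sfp1, which act downstream of the TOR and protein kinase A pathways. When TOR signaling falls, the corepressor Crf1 enters the nucleus in some strain backgrounds and competes with Ifh1 for Fhl1.

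Intensities are log2 values, quantile-normalized by the authors, and a difference of 1 is a 2-fold difference in intensity. The median over all genes was between 9.99 and 10.02 on the direct random arrays, in the same range on the indirect arrays, and between 10.09 and 10.12 on the ds-cDNA arrays. GAL1, the galactokinase gene that galactose induces, read between 14.42 and 15.2 on the 18 arrays, above at least 99.0% of the genes. An intensity also depends on the probes of a gene, so it is compared here between arrays and not between genes as an amount of RNA.

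The largest differences within the set were between labeling methods and not between strains. On the 6 direct random arrays the median of the 55 transcripts lay between 13.25 and 13.41, above 94.4 to 95.2% of all genes. On the 6 indirect arrays it lay between 13.29 and 13.59, above 94.7 to 95.9% of the genes. On the 6 ds-cDNA arrays it lay between 11.37 and 11.76, above 76.4 to 82.1% of the genes.

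**Figure D1:**
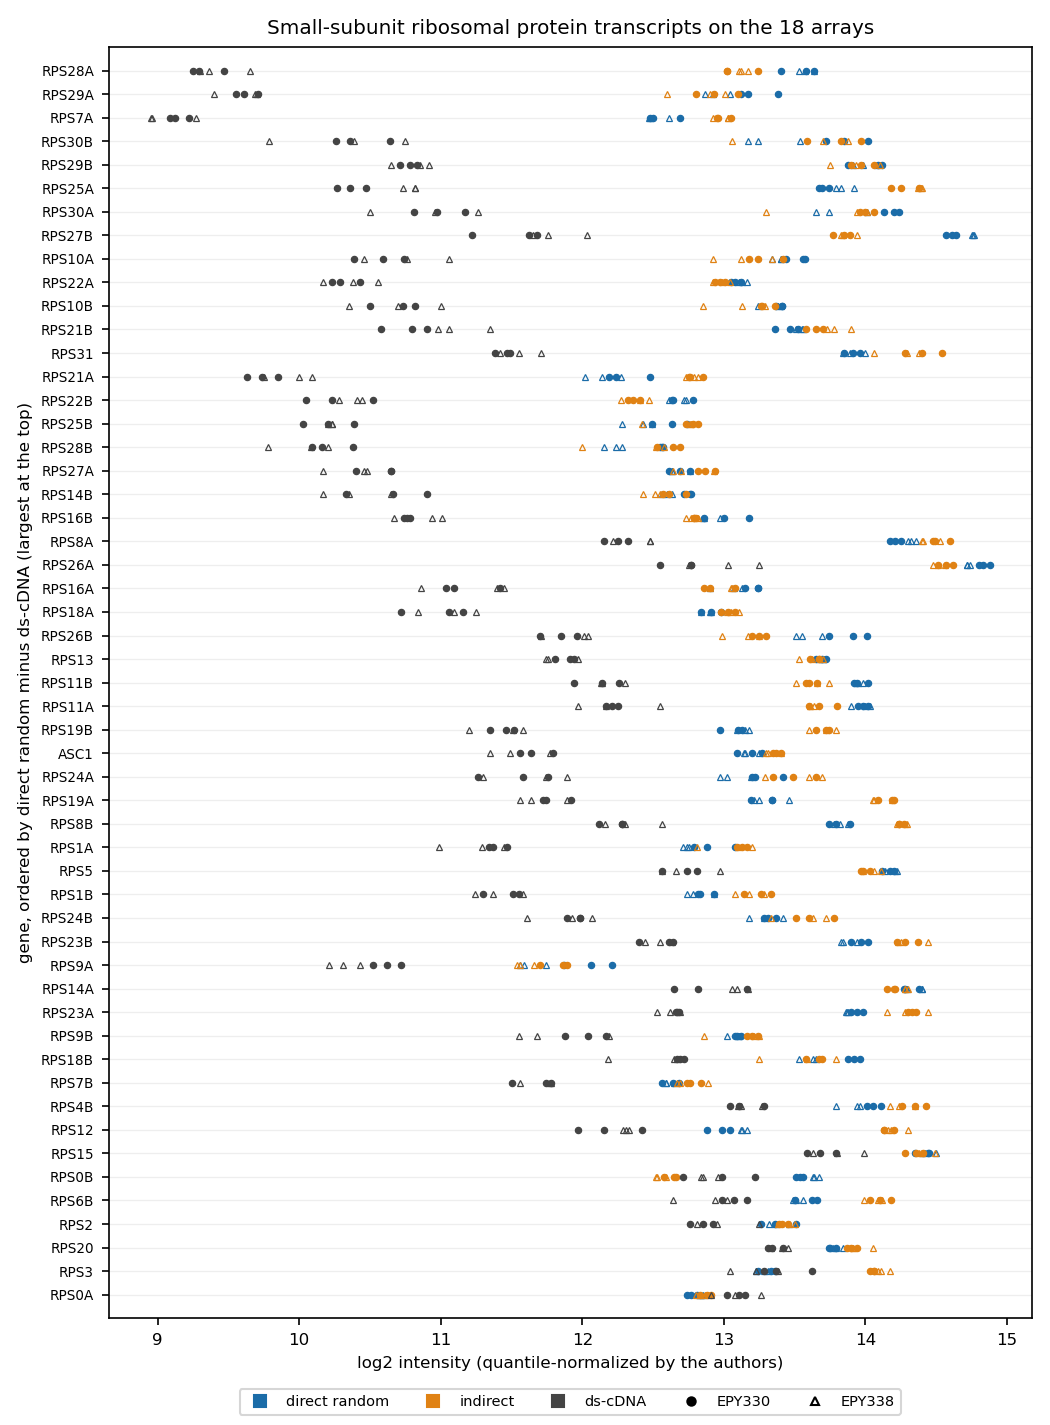
Log2 intensity (horizontal axis) of 53 of the 55 transcripts on all 18 arrays, 1 row per gene, ordered by the difference between the direct random and the ds-cDNA method. Color marks the labeling method and the symbol marks the strain. The ds-cDNA points lie to the left of the others for nearly all genes. At the bottom of the plot they overlap the direct random points for RPS3 and lie to the right of those points for RPS0A. For RPS0B the ds-cDNA points lie to the right of the indirect points.

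Between the direct random and the ds-cDNA method, limma called 53 of the 55 transcripts higher on the direct random arrays and 1 lower at an adjusted p under 0.05. Over all genes, 37.4% were called higher and 49.7% lower in this comparison. The median difference of the set was 1.84, against -0.12 over all genes. A difference above 1 was found for 45 of the 55 transcripts, against 14.9% of all genes, and one above 2 for 22 of them, against 4.91% of all genes. For 54 of the 55 the arrays of the methods did not overlap, which held for 72.5% of all genes.

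RPS28A (YOR167C) encodes one copy of Rps28, a small protein of the head near the mRNA exit. It gave a lowest, median and highest intensity of 13.4, 13.58 and 13.64 on the 6 direct random arrays and 9.25, 9.33 and 9.65 on the 6 ds-cDNA arrays. No ds-cDNA array came near the lowest direct random array, in either strain. The difference was 4.17 (SE 0.065, 18.1-fold, adjusted p = 3.53e-19, limma).

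RPS29A (YLR388W), for a small zinc-binding protein of the head, gave a lowest, median and highest intensity of 12.87, 13.08 and 13.38 on the direct random arrays and 9.4, 9.65 and 9.71 on the ds-cDNA arrays, a difference of 3.47 (SE 0.078). The arrays of the methods were fully separated here too.

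The exceptions encode proteins of different parts of the subunit. RPS0A (YGR214W) encodes a protein of the body that joins late in assembly. Its lowest, median and highest intensities were 12.74, 12.83 and 12.85 on the direct random arrays and 12.91, 13.09 and 13.26 on the ds-cDNA arrays. It was the only member called lower on the direct random arrays, with a difference of -0.28 (SE 0.049, adjusted p = 4.56e-05, limma).

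RPS3 (YNL178W) encodes a head protein at the mRNA entry channel. It gave 13.23, 13.29 and 13.36 on the direct random arrays and 13.04, 13.32 and 13.62 on the ds-cDNA arrays as the lowest, median and highest of 6 arrays. The arrays overlapped, and the difference of -0.03 (SE 0.060) was not called (adjusted p = 0.682, limma). Small positive differences were found for RPS20 (0.41, SE 0.039), which encodes a head protein beside Rps3, and for RPS2 (0.46, SE 0.065), whose product lies with Rps3 at the mRNA entry. Both were called higher, and the 53 transcripts called higher spanned 0.41 for RPS20 to 4.17 for RPS28A.

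By position in the subunit, 22 of 23 head transcripts were called higher on direct random than on ds-cDNA arrays, with a median difference of 2.14, and 31 of 32 body transcripts, with a median of 1.67. The 9 single-copy genes had a median of 0.81, and 8 of them were called higher. The largest difference among these was 2.41 (SE 0.063) for RPS31, whose protein is made as a fusion to ubiquitin.

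The comparison of indirect with ds-cDNA labeling uses the same ds-cDNA arrays, so it is not independent of the one above. In it 53 transcripts were called higher on the indirect arrays and 2 lower, with a median difference of 1.94 against -0.09 over all genes. Of all genes 40.4% were called higher and 48.6% lower. The arrays of the methods did not overlap for 54 transcripts and for 72.7% of all genes. Differences above 1 were found for 49 of the 55 transcripts, against 17.1% of all genes, and above 2 for 25, against 6.03%.

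RPS7A (YOR096W) encodes one copy of Rps7, a body protein of the subunit. At the upper end of this comparison, it gave 12.92, 13 and 13.05 as the lowest, median and highest on the indirect arrays and 8.95, 9.1 and 9.27 on the ds-cDNA arrays (3.89, SE 0.058). The 2 transcripts called lower on the indirect arrays were the copies of Rps0. RPS0B gave 12.52, 12.58 and 12.66 on the indirect arrays and 12.71, 12.91 and 13.22 on the ds-cDNA arrays, with no overlap (-0.34, SE 0.061, adjusted p = 5.5e-05, limma). RPS0A differed by -0.23 (SE 0.049, adjusted p = 0.000255, limma), and its arrays overlapped.

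Between the direct random and the indirect method the differences were smaller and ran both ways. Of the 55 transcripts 13 were called higher on the direct random arrays and 25 lower, while 17 did not pass the test. Over all genes 30.5% were called higher and 34.0% lower, and the median difference was -0.10 for the set and -0.02 for all genes. The arrays of these methods did not overlap for 30 of the 55 transcripts and for 38.2% of all genes. Without the arrays of replicate 2 the number called higher was 8.

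RPS0B stood at the upper end of this comparison. Its lowest, median and highest intensities were 13.51, 13.6 and 13.67 on the direct random arrays and 12.52, 12.58 and 12.66 on the indirect arrays (difference 1.00, SE 0.061, 2.01-fold, adjusted p = 4.08e-10, limma). RPS27B (YHR021C), for one copy of the zinc-binding Rps27, gave 14.57, 14.69 and 14.77 on the direct random arrays and 13.77, 13.85 and 13.94 on the indirect arrays (0.83, SE 0.073). RPS26B (YER131W), for one copy of Rps26 near the mRNA exit, gave 13.51, 13.72 and 14.01 on the direct random arrays and 12.99, 13.23 and 13.3 on the indirect arrays (0.54, SE 0.069). In all 3 genes every direct random array lay above every indirect array.

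RPS12 (YOR369C), for a protein of the beak of the head, stood at the lower end. It gave 12.88, 13.08 and 13.16 on the direct random arrays and 14.13, 14.17 and 14.3 on the indirect arrays (-1.13, SE 0.059, 0.458-fold, adjusted p = 7.4e-11, limma). RPS19A (YOL121C), for one copy of the head protein Rps19, gave 13.19, 13.3 and 13.46 on the direct random arrays and 14.05, 14.14 and 14.2 on the indirect arrays (-0.83, SE 0.062). RPS3 gave 13.23, 13.29 and 13.36 on the direct random arrays and 14.03, 14.07 and 14.17 on the indirect arrays (-0.79, SE 0.06). These 3 were also separated between the methods, with every indirect array on top.

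The same comparisons were read in lists of genes with related functions. The large subunit, read through 78 ribosomal protein genes with values, moved the same way. Between the direct random and the ds-cDNA method 77 of its transcripts were called higher and 1 lower, with a median of 2.02. Between the indirect and the ds-cDNA method the counts were 77 and 1 with a median of 2.23, and between the direct random and the indirect method 12 and 43 with a median of -0.17. The shares of all genes called higher and lower were 37.4% and 49.7%, 40.4% and 48.6%, and 30.5% and 34.0% in this order.

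The medians of genes that act on the small subunit lay nearer to that of all genes, -0.12. Over all genes 37.4% were called higher and 49.7% lower on direct random than on ds-cDNA arrays. Of 12 regulators of ribosomal protein genes 2 were called higher and 8 lower in this comparison, with a median of -0.36. For 15 assembly factors of the small subunit the counts were 6 and 8 with a median of -0.25. For 15 translation factors that bind it they were 6 and 5 with a median of 0.05. Single genes of these lists did differ by as much as ribosomal proteins: SUI1, which encodes the start-codon factor eIF1, was higher on the direct random arrays by 3.02 (SE 0.055). The regulator HMO1, a high-mobility-group protein at ribosomal protein promoters, was higher by 1.57 (SE 0.057). SUI1 and HMO1 were picked out after their values were seen.

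Between the strains, the differences of the same transcripts, EPY330 minus EPY338, lay between -0.17 and 0.55 on the direct random arrays, between -0.16 and 0.25 on the indirect arrays and between -0.42 and 0.30 on the ds-cDNA arrays. The median difference was 0.03 on the direct random arrays, 0.04 on the indirect arrays and -0.02 on the ds-cDNA arrays, where the medians of all genes were -0.01, -0.02 and 0.00. All 3 methods gave 1 sign for 29 of the 55 transcripts, or 52.7%, and for 57.3% of all genes. Of these 29, 17 were higher and 12 lower in EPY330.

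By direct random labeling 8 transcripts were called higher in EPY330 (RPS9A, RPS14B, RPS18B, RPS26B, RPS28B, RPS29A, RPS30A and RPS30B) and 1 lower (RPS27B). The 8 are 14.5% of the set, where 11.0% of all genes were called higher, and the 1 is 1.82%, where 11.4% of all genes were called lower. The strains did not overlap for 21 of the 55 transcripts, against 41.3% of all genes. When arrays were left out one at a time, the number called higher was 7 without EPY330 replicate 1, 4 without EPY330 replicate 2 or 3, 5 without EPY338 replicate 1, 2 without EPY338 replicate 2 and 6 without EPY338 replicate 3. The number called lower was 0 without any one of these arrays.

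**Figure D2:**
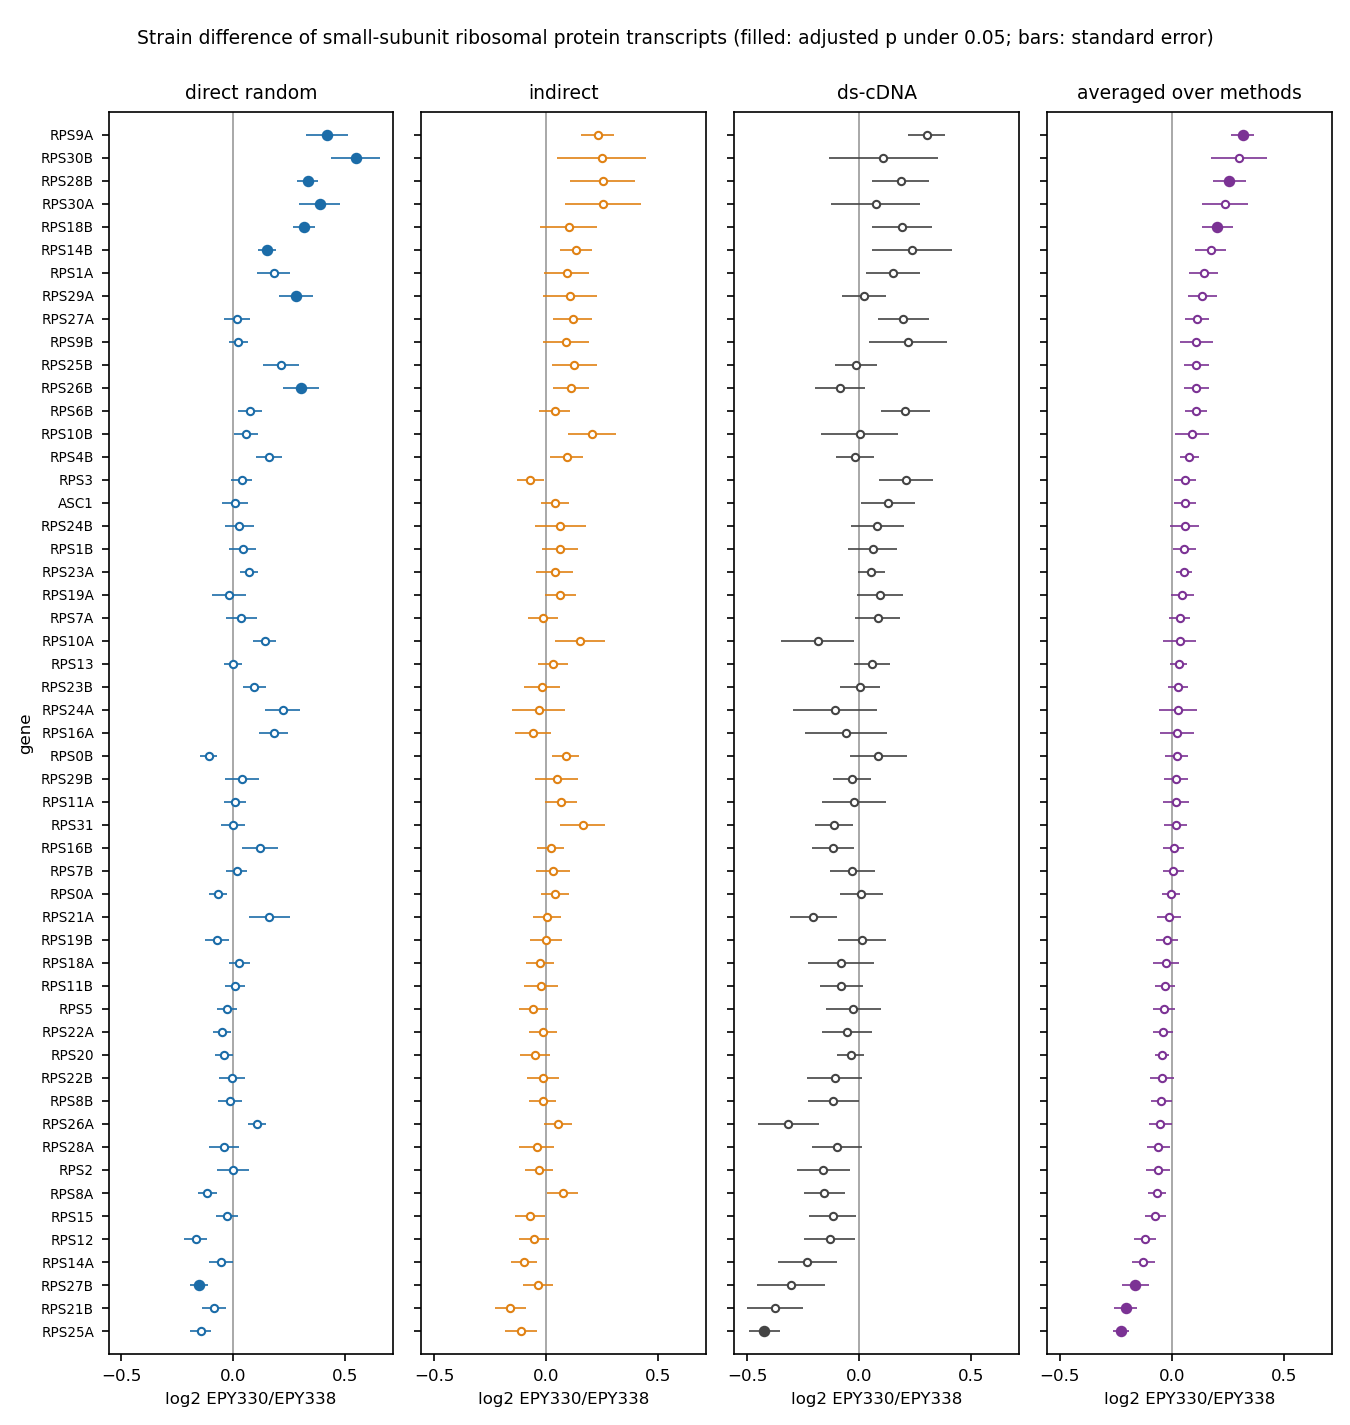
Log2 EPY330/EPY338 (horizontal axes) of 53 of the 55 transcripts with the direct random, the indirect and the ds-cDNA method and averaged over the methods, with the standard error of the limma fit as bars. Filled points passed an adjusted p of 0.05. There are 9 filled points in the first panel, 0 in the second, 1 in the third and 6 in the last.

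The largest of the called differences was that of RPS30B (YOR182C), which encodes one copy of a small body protein. It gave 13.85, 14.02 and 13.72 in EPY330 and 13.17, 13.24 and 13.54 in EPY338 on the direct random arrays (0.55, SE 0.111, 1.46-fold, adjusted p = 0.0132, limma). Every EPY330 array lay above every EPY338 array. On the indirect arrays RPS30B gave 13.83, 13.97 and 13.59 in EPY330 and 13.88, 13.7 and 13.06 in EPY338, and the strains overlapped (0.25, SE 0.198, adjusted p = 0.503). Its ds-cDNA intensities were 10.64, 10.36 and 10.26 in EPY330 and 9.79, 10.39 and 10.75 in EPY338, again with overlap (0.11, SE 0.244). The direct random call was lost without EPY338 replicate 2 (adjusted p = 0.0509).

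RPS9A (YPL081W) encodes one copy of Rps9, a body protein that bears on the accuracy of decoding. It gave 11.87, 12.21 and 12.06 in EPY330 and 11.74, 11.56 and 11.59 in EPY338 on the direct random arrays (0.42, SE 0.092, 1.34-fold, adjusted p = 0.0178, limma). RPS9A gave 11.86, 11.89 and 11.7 in EPY330 and 11.56, 11.54 and 11.66 in EPY338 on the indirect arrays (0.23, SE 0.075, adjusted p = 0.0999). Its ds-cDNA intensities were 10.52, 10.62 and 10.72 in EPY330 and 10.31, 10.21 and 10.43 in EPY338 (0.30, SE 0.081, adjusted p = 0.0812). The strains were separated with all 3 methods, while only the direct random difference passed the test within a method. That call was lost without EPY330 replicate 3, EPY338 replicate 2 or EPY338 replicate 3, with adjusted p of 0.0536 to 0.0646.

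RPS30A (YLR287C-A), the other copy of Rps30, gave 14.2, 14.24 and 14.13 in EPY330 and 13.74, 13.65 and 14.01 in EPY338 on the direct random arrays (0.39, SE 0.092, 1.31-fold, adjusted p = 0.0235, limma). Its strains did not overlap there, and they did with the other methods. The call was lost without EPY330 replicate 1 or 2 and without EPY338 replicate 1 or 2, with adjusted p of 0.0642 to 0.0675. The other 5 transcripts called higher with this method differed by 0.15 for RPS14B to 0.33 for RPS28B. RPS27B gave 14.61, 14.57 and 14.64 in EPY330 and 14.77, 14.76 and 14.75 in EPY338 (-0.15, SE 0.04, 0.901-fold, adjusted p = 0.0336, limma), a small difference between 2 tight groups.

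On the indirect arrays limma called 0 of the 55 transcripts different, where 9.08% of all genes were called. The methods' t-test with Benjamini-Hochberg adjustment also called 0. In the limma fit 1 transcript had an unadjusted p under 0.05, against 25.4% of all genes. The lowest adjusted p was 0.0999, for RPS9A, and the strains did not overlap for 5 transcripts, against 30.2% of all genes. The 95% intervals of 51 of the 55 differences lay within ±0.5. On EPY338 replicate 3 the members read differently from the other replicates of that group: its correlation with them over the 55 transcripts was 0.928 and 0.949, against 0.978 or more for all other pairs of replicates. Without this array 0 transcripts were called as well.

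On the ds-cDNA arrays 0 transcripts were called higher in EPY330 and 1, RPS25A, lower, where 3.76% and 2.56% of all genes were called. In 3 transcripts the unadjusted p was under 0.05, against 24.3% of all genes. In 4 transcripts the strains did not overlap, against 29.2% of all genes. RPS25A (YGR027C) encodes one copy of Rps25, a head protein needed for initiation at some internal ribosome entry sites. It gave 10.27, 10.47 and 10.36 in EPY330 and 10.82, 10.73 and 10.82 in EPY338 (-0.42, SE 0.069, 0.746-fold, adjusted p = 0.0207, limma). All EPY330 arrays lay below all EPY338 arrays. The call was lost without any one of these arrays other than EPY330 replicate 2.

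On the ds-cDNA arrays the replicate spread of the members was wider than that of genes at large. The median SD between replicates was 0.162 for the set, against 0.112 for all genes, while it was 0.065 against 0.073 on the direct random arrays and 0.079 against 0.102 on the indirect arrays. The spread was shared between members: EPY338 replicate 3 gave the highest of the 3 readings for 45 of the 55 transcripts, and EPY338 replicate 1 the lowest for 33. In EPY330, replicate 2 gave the highest reading for 30 transcripts and replicate 3 the lowest for 36. These ranks were not counted over all genes. The 95% intervals of 43 of the 55 differences lay within ±0.5 with this method.

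Averaged over the methods, in the fit of all 18 arrays, 3 transcripts were called higher in EPY330 and 3 lower, or 5.45% each, where 16.1% and 19.8% of all genes were called. The intervals of 54 of the 55 lay within ±0.5. RPS9A was higher by 0.32 (SE 0.051, 1.25-fold, adjusted p = 0.000133), RPS28B by 0.26 (SE 0.074, adjusted p = 0.0116) and RPS18B by 0.20 (SE 0.07, adjusted p = 0.0296). The differences of those lower in EPY330 were -0.23 for RPS25A (SE 0.037, 0.854-fold, adjusted p = 0.000133), -0.21 for RPS21B (SE 0.053, adjusted p = 0.00592) and -0.16 for RPS27B (SE 0.059, adjusted p = 0.0409), all by limma. RPS30B had 0.30 (SE 0.124) and was not called (adjusted p = 0.0697). Leaving out replicate 2 of every group gave 1 transcript called higher, and leaving out replicate 3 gave 8. The call of RPS28B was lost without replicate 2 (adjusted p = 0.117), that of RPS18B without replicate 2 or 3 (0.15 and 0.0715), and that of RPS27B without any one replicate number (0.0548 to 0.197).

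RPS28B (YLR264W) encodes the second copy of Rps28, which in yeast also binds its own mRNA and promotes its decay. It gave 12.55, 12.57 and 12.56 in EPY330 and 12.24, 12.15 and 12.28 in EPY338 on the direct random arrays, separated by more than the spread of either group (0.33, SE 0.046, adjusted p = 0.00286, limma). Its indirect intensities were 12.64, 12.69 and 12.53 in EPY330 and 12.58, 12.52 and 12 in EPY338. The ds-cDNA intensities were 10.16, 10.38 and 10.09 in EPY330 and 9.78, 10.08 and 10.2 in EPY338. The strains overlapped with both of these methods.

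RPS25A gave 13.69, 13.67 and 13.74 in EPY330 and 13.83, 13.79 and 13.92 in EPY338 on the direct random arrays, without overlap. On the indirect arrays it gave 14.25, 14.18 and 14.38 in EPY330 and 14.39, 14.4 and 14.37 in EPY338, where 1 EPY330 array lay within the range of EPY338. RPS21B (YJL136C), whose product sits in the body beside Rps0, gave 10.8, 10.9 and 10.58 in EPY330 and 11.06, 10.98 and 11.35 in EPY338 on the ds-cDNA arrays. Its strains were separated there and on the indirect arrays and overlapped on the direct random arrays.

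The difference between strains was also compared between methods. Of the 55 transcripts 0 passed this test in limma for any pair of methods, where 0.0% (direct random and indirect), 0.575% (direct random and ds-cDNA) and 0.697% (indirect and ds-cDNA) of all genes did. An unadjusted p under 0.05 was found for 0, 5 and 5 of the 55 transcripts in the same order of pairs. Over all genes it was found for 5.66%, 10.0% and 11.5%. The lowest adjusted p was 0.17, for RPS25A between the indirect and the ds-cDNA method. The fit behind this test gives each gene 1 residual variance for all methods. The median replicate SD of the members was 0.065 by direct random, 0.079 by indirect and 0.162 by ds-cDNA labeling. The test between the direct random and the indirect method therefore also carries the wider ds-cDNA spread. Within this limit, that a transcript was called with one method and missed with another is not a measured difference between the methods.

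**Figure D3:**
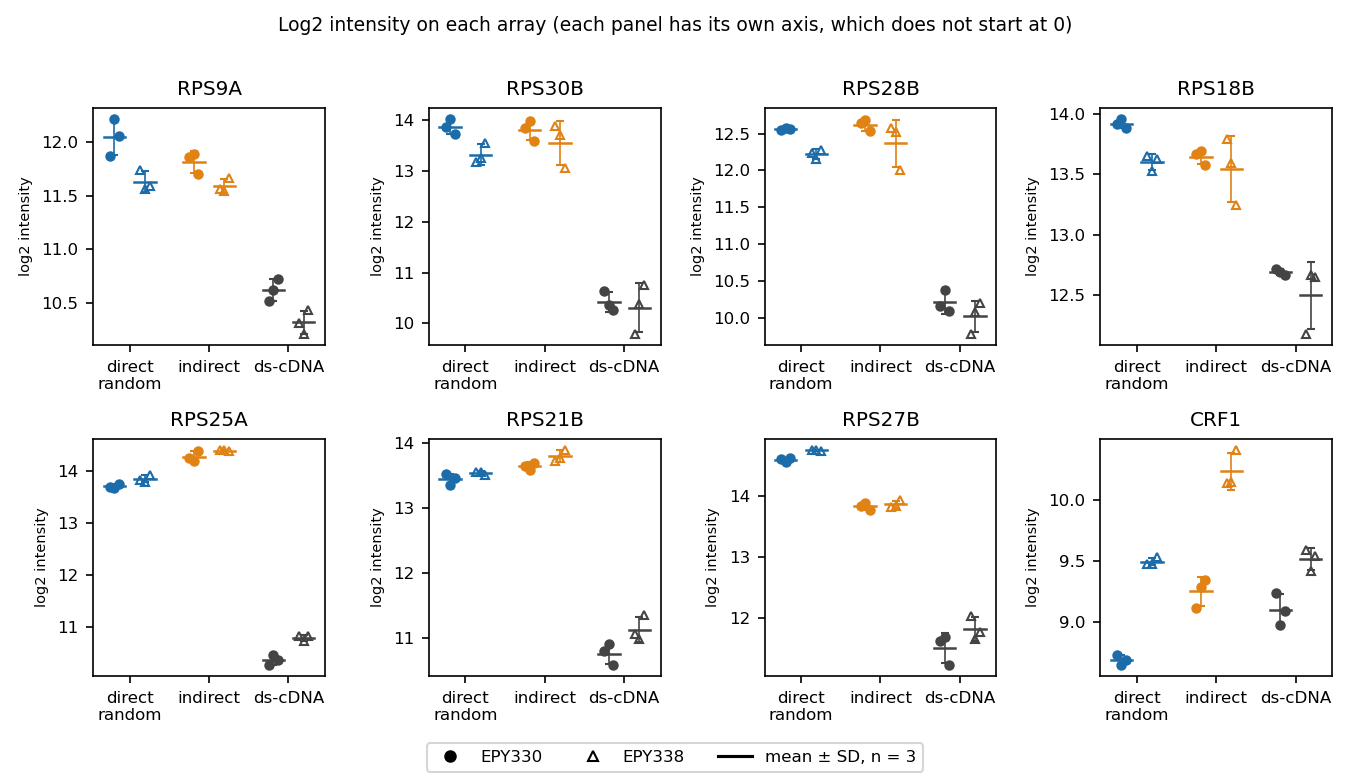
Log2 intensity on each array (vertical axes, which differ between panels and do not start at 0) of the 6 transcripts called in the average over methods, of RPS30B and of the regulator CRF1. Circles are EPY330 and triangles EPY338, with mean ± SD of 3 arrays. For RPS9A all circles lie above all triangles with each method, and for CRF1 all lie below.

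The 22 paralog pairs allow a comparison of 2 genes that encode nearly the same protein. Copy A minus copy B was formed on each array, which removes any shift common to an array, and the strains were compared by a 2-sided exact permutation test over 8000 arrangements of the arrays within methods. The p-values are unadjusted over the 22 pairs, and 7 were under 0.05. Other pairs of genes were not put through this test, so the 7 have no background share to be read against. Cross-hybridization between similar copies was not tested, as no probe sequences were used.

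RPS25, RPS28 and RPS14 had the largest differences. For RPS25 the strain difference of copy A minus that of copy B was -0.34 on average (exact permutation p = 0.00075). By method it was -0.36 after direct random labeling, -0.24 after indirect labeling and -0.41 on the ds-cDNA arrays. RPS25B gave 12.63, 12.74 and 12.49 in EPY330 and 12.28, 12.43 and 12.49 in EPY338 on the direct random arrays, higher in EPY330 where RPS25A was lower. Its own difference did not pass the test (0.22, SE 0.081, adjusted p = 0.0972, limma). RPS25B also gave 12.78, 12.82 and 12.73 in EPY330 and 12.76, 12.77 and 12.42 in EPY338 after indirect labeling, and 10.2, 10.39 and 10.03 in EPY330 and 10.2, 10.23 and 10.23 in EPY338 after ds-cDNA labeling. These strains overlapped.

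For RPS28 the difference of A minus B was -0.32 on average (exact permutation p = 0.001), with -0.37 by direct random labeling, -0.30 by indirect labeling and -0.28 by the ds-cDNA method. RPS28A gave 13.58, 13.4 and 13.64 in EPY330 and 13.57, 13.53 and 13.64 in EPY338 on the direct random arrays. These strains overlapped, whereas those of RPS28B did not. The intensities of RPS28A were 13.02, 13.24 and 13.02 in EPY330 and 13.17, 13.12 and 13.11 in EPY338 after indirect labeling, and 9.47, 9.29 and 9.25 in EPY330 and 9.36, 9.3 and 9.65 in EPY338 after ds-cDNA labeling, again with overlap.

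Rps14 lies on the platform of the body, and in yeast it represses the expression of its own RPS14B gene. The difference of A minus B was -0.30 on average, with the smallest p that 8000 arrangements can give (exact permutation p = 0.00025), and -0.21, -0.23 and -0.47 by method. After direct random labeling RPS14A gave 14.38, 14.28 and 14.27 in EPY330 and 14.4, 14.4 and 14.29 in EPY338, and RPS14B gave 12.77, 12.72 and 12.76 in EPY330 and 12.63, 12.56 and 12.6 in EPY338. The strains overlapped for RPS14A and were separated for RPS14B.

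After indirect labeling RPS14A gave 14.15, 14.2 and 14.21 in EPY330 and 14.28, 14.3 and 14.28 in EPY338. RPS14B gave 12.61, 12.57 and 12.73 in EPY330 and 12.43, 12.51 and 12.55 in EPY338. Here both copies were separated, in opposite directions, although neither passed the limma test by itself (adjusted p = 0.349 for RPS14A and 0.282 for RPS14B). After ds-cDNA labeling RPS14A gave 13.16, 12.82 and 12.65 in EPY330 and 13.06, 13.17 and 13.09 in EPY338, and RPS14B gave 10.9, 10.66 and 10.33 in EPY330 and 10.17, 10.35 and 10.65 in EPY338. Both overlapped.

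The other 4 pairs with p under 0.05 were RPS27 (A minus B 0.27, exact permutation p = 0.00075), RPS18 (-0.23, p = 0.0118), RPS21 (0.19, p = 0.0123) and RPS26 (-0.16, p = 0.0423). The value for RPS9 was 0.21, with an exact permutation p of 0.0542. In 13 further pairs the difference lay between -0.06 for RPS30 and 0.12 for RPS29. The pairs were thus not uniform, and in the 7 with p under 0.05 A minus B had the same sign with all 3 methods.

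**Figure D4:**
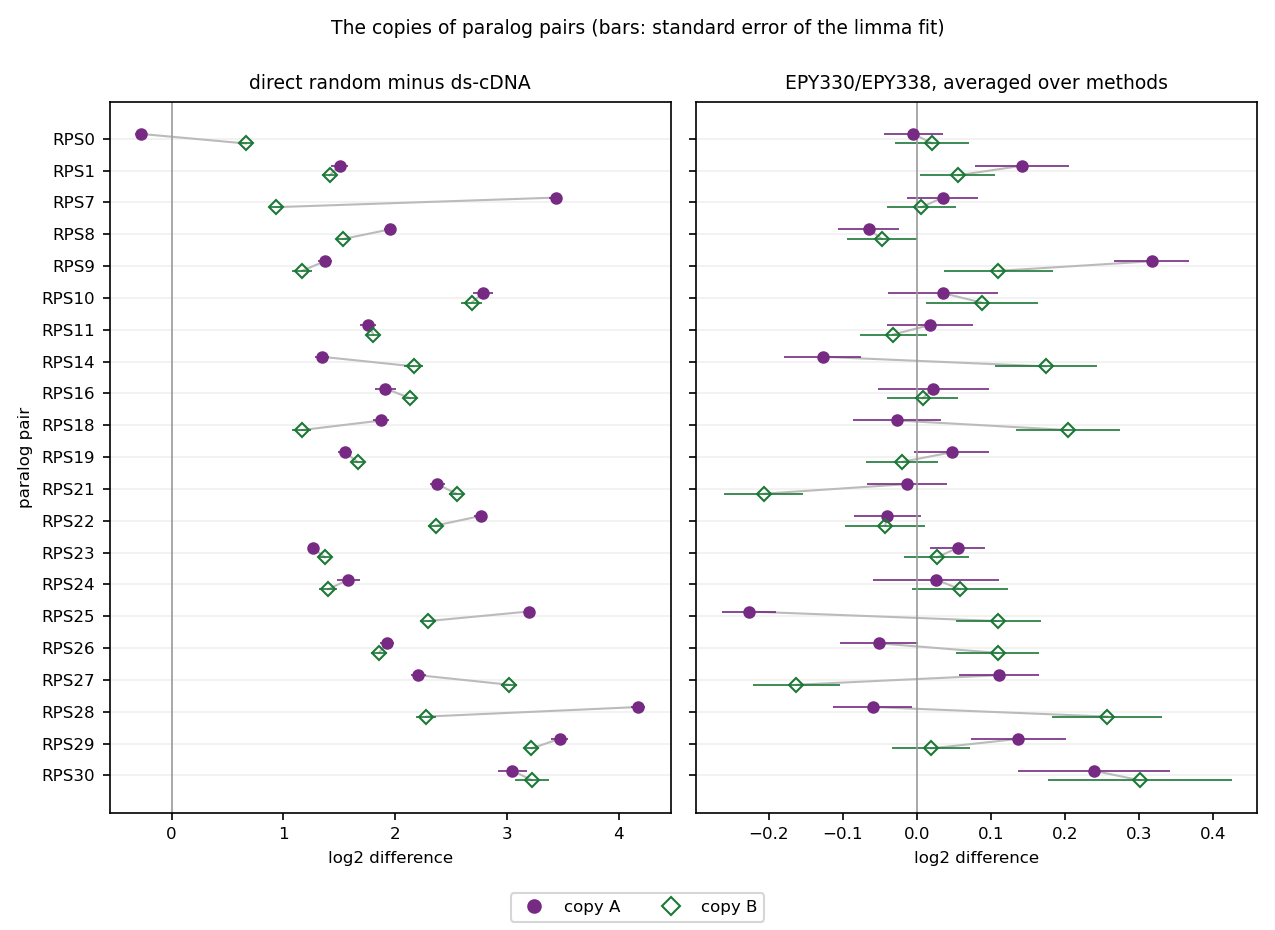
Log2 difference (horizontal axes) of copy A and copy B of 21 of the 22 pairs, between the direct random and the ds-cDNA method (left) and between EPY330 and EPY338 averaged over methods (right), with standard errors of the limma fits. RPS7 and RPS28 have the widest gaps on the left, and RPS25, RPS28 and RPS14 on the right, where the scale is much finer.

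In some pairs the copies also differed in their change between labeling methods. The quantity is again copy A minus copy B in log2 intensity on each array. Its value within 1 method depends on the probes of the copies, so only its change between methods is compared, as a description. Between the direct random and the ds-cDNA method the arrays of the methods did not overlap for 9 of the 22 pairs, between the indirect and the ds-cDNA method for 8, and between the direct random and the indirect method for 5. The intensities of single genes did not overlap for 72.5%, 72.7% and 38.2% of all genes in the same order. No such share was computed for differences between copies, so the counts of pairs have no background to be read against.

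The widest change was that of RPS7. RPS7A minus RPS7B was -0.08 ± 0.13 on the direct random arrays, 0.23 ± 0.09 on the indirect arrays and -2.59 ± 0.18 on the ds-cDNA arrays (SD, n = 6 each). RPS7B itself gave 12.62 ± 0.04, 12.76 ± 0.09 and 11.69 ± 0.12 in this order of methods. The low ds-cDNA reading was thus that of RPS7A for the most part.

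RPS28A minus RPS28B was 1.17 ± 0.22 on direct random arrays, 0.62 ± 0.25 on indirect arrays and -0.73 ± 0.23 on ds-cDNA arrays, so its sign on the ds-cDNA arrays was opposite to that with the other methods. RPS0A minus RPS0B was -0.78 ± 0.04 on direct random arrays, 0.26 ± 0.07 on indirect arrays and 0.16 ± 0.15 on ds-cDNA arrays. Here the direct random method stood apart, through RPS0B. RPS27A minus RPS27B was -2.0 ± 0.11, -1.04 ± 0.13 and -1.19 ± 0.29 in the same order, which also set the direct random method apart.

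RPS22B and ASC1 overlap snoRNA genes on the same strand in the annotation, SNR44 and SNR24. ASC1 (YMR116C) encodes the yeast homolog of the signaling scaffold RACK1, bound to the head. Their differences between the direct random and the ds-cDNA method were 2.36 (SE 0.066) for RPS22B and 1.58 (SE 0.062) for ASC1. The median of the set, which includes both, was 1.84. Neither was called between the strains in the average over methods. Any contribution of the snoRNAs to these readings was not tested.

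Among the genes that act on the set, 1 regulator differed between the strains with all 3 methods. It was the 1 of 12 regulators called lower in EPY330 with each method, or 8.33%. Of all genes 11.4%, 4.6% and 2.56% were called lower by direct random, indirect and ds-cDNA labeling. The share of all genes called with all 3 methods was not computed. CRF1, which encodes the corepressor, gave 8.73, 8.65 and 8.69 in EPY330 and 9.48, 9.48 and 9.53 in EPY338 on the direct random arrays (-0.80, SE 0.042, 0.573-fold, adjusted p = 2.24e-05, limma). Its indirect intensities were 9.12, 9.29 and 9.35 in EPY330 and 10.14, 10.15 and 10.41 in EPY338 (-0.98, SE 0.097, adjusted p = 0.000569). The ds-cDNA intensities were 9.24, 8.98 and 9.09 in EPY330 and 9.59, 9.42 and 9.54 in EPY338 (-0.42, SE 0.084, adjusted p = 0.0387). The strains were separated with every method, and CRF1 fell in EPY330 by more than any member of the set moved in either direction in the average over methods (-0.73, SE 0.048, adjusted p = 2.62e-09). Its ds-cDNA call was lost without any one array other than EPY330 replicate 1, with adjusted p of 0.0682 to 0.115.

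In the average over methods 1 of the 12 regulators was called higher in EPY330 and 1, CRF1, lower, or 8.33% each, where 16.1% and 19.8% of all genes were called. Of the other 11 regulators 1 was called, IFH1, the coactivator that Crf1 displaces. It was chosen after its values were seen. IFH1 was higher in EPY330 on the ds-cDNA arrays (0.37, SE 0.066, adjusted p = 0.0268, limma) and in the average over methods (0.25, SE 0.049, adjusted p = 0.00075). The difference was 0.31 (SE 0.08, adjusted p = 0.0505) on the indirect arrays and 0.07 (SE 0.09, adjusted p = 0.618) on the direct random arrays. The ds-cDNA call was lost without EPY330 replicate 2 or 3 and without EPY338 replicate 2 or 3, with adjusted p of 0.077 to 0.0915.

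Among 15 translation factors that bind the small subunit, TIF5, which encodes the GTPase-activating factor eIF5, was called higher in EPY330 with 2 methods. It gave 11.89, 11.81 and 11.81 in EPY330 and 11.68, 11.68 and 11.65 in EPY338 on the direct random arrays (0.17, SE 0.043, adjusted p = 0.0306, limma). The ds-cDNA intensities were 12.49, 12.67 and 12.35 in EPY330 and 12.03, 11.89 and 12.14 in EPY338 (0.48, SE 0.103, adjusted p = 0.0458). The strains were separated with both, and on the indirect arrays the difference was 0.03 (SE 0.076, adjusted p = 0.889). Both calls were lost when any one array was left out, with adjusted p of 0.0556 to 0.0869 on the direct random arrays and 0.0509 to 0.113 on the ds-cDNA arrays. In the average over methods 3 of the 15 were called higher in EPY330 and 3 lower, or 20.0% each, beside the same 16.1% and 19.8% of all genes. TIF5 was higher by 0.23 (SE 0.046, adjusted p = 0.00116, limma), and the other two, RPG1 and NIP1, encode subunits of the scaffold factor eIF3. The 3 called lower were SUI1 (-0.20, SE 0.045), STM1 (-0.20, SE 0.04) and TIF11 (-0.15, SE 0.045), which encode eIF1, a protein that binds idle ribosomes, and eIF1A. These 5 genes beside TIF5 were named after their values were seen.

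The check of the galactose medium held 3 genes. Of these 1, 2 and 1 were called lower in EPY330 by direct random, indirect and ds-cDNA labeling, and 0 higher. Over all genes 11.4%, 4.6% and 2.56% were called lower. In the average over methods 2 of the 3 were called lower, against 19.8% of all genes. Their ds-cDNA differences ran from -0.59 to 0.22. GAL7, which encodes galactose-1-phosphate uridyltransferase, was called lower in EPY330 with all 3 methods and was also named after its values were seen. It gave 13.82, 13.87 and 13.84 in EPY330 and 14.33, 14.14 and 14.22 in EPY338 on the direct random arrays (-0.38, SE 0.054, 0.767-fold, adjusted p = 0.00315, limma). The indirect intensities of GAL7 were 14.02, 13.95 and 13.88 in EPY330 and 14.41, 14.37 and 14.3 in EPY338 (-0.41, SE 0.068, adjusted p = 0.00877). Its ds-cDNA intensities were 13.08, 13.1 and 13.11 in EPY330 and 13.56, 13.54 and 13.95 in EPY338 (-0.59, SE 0.116, adjusted p = 0.0376). No EPY330 array reached the lowest EPY338 array of the same method, and in the average over methods GAL7 was lower by a log2 difference of -0.46 (SE 0.05, adjusted p = 1.91e-06). The ds-cDNA call was lost without any one array other than EPY338 replicate 3, with adjusted p of 0.0622 to 0.106.

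Of the 15 assembly factors 5 were called higher in EPY330 in the average over methods and 0 lower, where 16.1% and 19.8% of all genes were called. These were TSR1 (0.38, SE 0.067), a late factor on the pre-40S particle, the rRNA methyltransferases BUD23 (0.37, SE 0.081) and DIM1 (0.17, SE 0.053), PNO1 (0.19, SE 0.057), which binds near the end of the pre-18S rRNA, and ENP1 (0.17, SE 0.048), which rides on the particle out of the nucleus. All 5 were named after their values were seen. Within methods, 3 of the 15 were called higher by direct random labeling, 0 by indirect and 0 by ds-cDNA labeling. Over all genes 11.0%, 4.48% and 3.76% were called higher. DIM1 and ENP1 were not called with any single method. Of the 78 large-subunit transcripts 4 were called higher and 7 lower in the average over methods, with a median of 0.00.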

How the data were processed

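The authors deposited 1 log2 intensity per gene and array, for which ArrayStar 3.0 summarized the probes by RMA with quantile normalization. It is not stated which arrays were normalized together or which of the 5 slides held each array, so slides could not enter a fit. Of 5861 entries, 122 had no value on any array and were left out, and 5739 genes were analysed without a further filter. The genome build of the probes is not given in the sources used here, so no coordinates are printed. Symbols and neighbours came from the R64 annotation by systematic name, which matched 5733 genes.

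Strains were compared within each method on 6 arrays with lmFit and eBayes of limma 3.58.1 in R 4.3.3, with Benjamini-Hochberg adjustment of p over all genes and a threshold of 0.05. The average over methods, the levels and the interactions of strain and method came from 1 fit of all 18 arrays with 6 group means. In that fit the methods share 1 residual variance per gene, although their replicate spreads differ. Differences are EPY330 minus EPY338. Lists were described by counts and medians beside all genes. The limma step was tested on simulated data. The number of arrays limits the precision. Python 3.11.15 and matplotlib 3.10.9 made the figures.

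The members and the lists of related genes were chosen with earlier results of these data known. Values on every array were given for the 3 called members of largest change per method, the 3 of largest average change, the extremes of each pair of methods and the 3 paralog pairs of largest difference, and genes outside the set for those called with at least 2 methods. For level comparisons over 6 arrays the lowest, median and highest are given. Other genes are said to be chosen after their values were seen. The values of 1 paralog pair are not reported here, although it is part of the counts and medians.

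Same-numbered replicates of the strains were checked for shared deviations over all genes. The correlations were 0.123, 0.149 and 0.253 with the indirect method, all over the limit of 0.1. They were -0.096 to 0.008 on the direct random arrays and -0.187 to 0.023 on the ds-cDNA arrays. Differently numbered replicates of the strains gave -0.321 to 0.205 with the indirect method. Between methods, same-numbered replicates of 1 strain gave -0.252 to 0.103. With the replicate block, 0 members were called with the indirect method, as without it. The alternatives tried were a replicate block, the methods' t-test, 1 fit of all arrays, a trended prior variance, centring on array medians, quantile normalization within a method or over all arrays, a filter on the dimmest 25% of genes, and leaving out arrays or replicate numbers.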

Additional observations from a re-analysis of the deposited data

Results flagged for a closer look

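The difference between strains in CRF1, a corepressor of ribosomal protein genes, depended on the labeling method in a test of that difference itself. EPY330 minus EPY338 was -0.98 on the indirect arrays and -0.42 on the ds-cDNA arrays, and the indirect minus ds-cDNA difference of -0.56 (SE 0.118) passed the interaction test (adjusted p = 0.0354, limma with Benjamini-Hochberg over all genes). CRF1 was lower on every EPY330 array than on every EPY338 array with both methods. The interaction had an adjusted p of 0.0196 to 0.286 over 7 alternatives and passed in 3 of them. It did not pass without replicate 1, 2 or 3 of every group (0.207, 0.286 and 0.186), nor without indirect EPY338 replicate 3 (0.0589). No small-subunit transcript passed this test.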

How the results depend on the processing

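No called difference changed sign under an alternative. The counts of members called between strains moved most. With the direct random method the number called higher, 8, was 3 with the methods' t-test, 15 with a trend in the prior variance, 5 with the replicate block and 1 in a single fit of all 18 arrays, and 2 to 7 when 1 array was left out. The number called lower, 1, was 2 with the t-test or with quantile normalization within the method, 3 with the trend or median centring, 0 with the replicate block, without the dimmest 25% of genes, in the fit of all arrays or without any 1 array. With the ds-cDNA method the number called lower, 1, was 0 with the t-test or the replicate block, 3 in the fit of all arrays, which also called 1 higher, and 0 to 1 without 1 array.

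In the average over methods the number called higher, 3, was 6 with the trend or without the dim genes and 1 to 8 without 1 replicate number, and the number called lower, 3, was 5 with median centring. Leaving out indirect EPY338 replicate 3, an alternative chosen after seeing the data, gave 3 and 2. Between the direct random and the indirect method the number called higher, 13, was 8 to 10 without 1 replicate number. Quantile normalization of all arrays together gave medians of 1.68 and 1.80 against the ds-cDNA method and 2 transcripts called lower with the direct random than with the ds-cDNA method. The median interaction of the indirect and the ds-cDNA method, 0.06, was -0.09 to 0.17 without 1 replicate number, and the median strain difference on the ds-cDNA arrays, -0.02, was above 0 without EPY330 replicate 3 (0.03) or EPY338 replicate 3 (0.05), so the sign of these medians, which were not tested, differed. The cause of these changes was not tested.

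RPS9A, RPS25A and RPS21B passed in all 8 alternatives of the average, RPS28B in 7, RPS18B in 5 and RPS27B in 4. Within the direct random method RPS18B and RPS28B passed in 12 of 13 alternatives, RPS30B in 10, RPS9A in 8, RPS26B in 7, RPS29A and RPS30A in 6, and RPS14B and RPS27B in 4. RPS25A passed in 6 of 13 with the ds-cDNA method, where CRF1 also passed in 6, GAL7 in 6, IFH1 in 7 and TIF5 in 4. TIF5 passed in 3 of 13 with the direct random method. CRF1 passed in all 13 with the direct random and with the indirect method, and GAL7 in 13 and 12.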
